A study of Mus musculus with 8 samples.

Results

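The neutrophil granule and calprotectin genes examined here were S100a8, S100a9, Retnlg, Lcn2, Ltf, Camp, Ngp, Mmp8, Mpo and Elane. Every non-control array probe whose accession belonged to 1 of these 10 genes was taken, which gave 11 of the 41174 probes on the array: 1 for each gene and a second for Ltf. The 10 genes were chosen by their measured signals on these 8 arrays, both between the genotypes and across the sample numbers. Those values are therefore given as descriptions, without a test. Of the 10, 9 were well above background on enough arrays to enter the fit over 20879 genes, and Elane did not.

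The samples were macrophages sorted from breast tumours that had grown for about 21 days in C57BL/6 mice after implantation of PyMT breast cancer cells into the mammary site. The mice either were wild type (WT) or lacked ATF3 (KO), a stress-induced transcription factor of the ATF/CREB family. The knockout was in the host alone: the implanted PyMT cells were the same kind in both groups, and every mouse carried a tumour. There were 4 WT and 4 KO samples, each on 1 array and numbered 1 to 4 within its genotype, and no macrophages from tumour-free mice were analysed here. Cells were taken by FACS as positive for both F4/80 and CD45, a gate that names macrophages by surface protein. No source used here says whether a sample held 1 mouse or several, so the spread between samples may be partly technical.

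Neutrophils make their granule proteins in waves while they mature in the bone marrow. The azurophil granules, with myeloperoxidase and elastase, are filled first in promyelocytes, the specific granules, with lactoferrin, lipocalin 2 and cathelicidin, follow in myelocytes, and the gelatinase granules come last. Calprotectin, the calcium-binding pair of S100A8 and S100A9, fills the cytosol of mature neutrophils and is also made by monocytes. In tumours, S100a8 and S100a9 are widely used to mark neutrophils and their immature relatives among the myeloid cells, whereas mature tissue macrophages carry little of them.

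The promoters of the 4 genes whose values followed the sample number most closely are shown first, as the 250 bases that precede each start of transcription, from RefSeq on assembly GRCm38.p6. All 10 genes had an entry. They are printed 5' to 3' along the strand of the gene, and capitals mark each match, on either strand, to TTGCNNAA (a C/EBP-type element), GAGGAA (a PU.1-type element), TATAAA (the TATA box), the AP-1 letters TGACTCA, or TGACGTCA (the CRE bound by ATF/CREB factors). C/EBP factors and PU.1 are the regulators best known for granulocyte genes.
S100a8, chr3:90668821-90669070, plus strand: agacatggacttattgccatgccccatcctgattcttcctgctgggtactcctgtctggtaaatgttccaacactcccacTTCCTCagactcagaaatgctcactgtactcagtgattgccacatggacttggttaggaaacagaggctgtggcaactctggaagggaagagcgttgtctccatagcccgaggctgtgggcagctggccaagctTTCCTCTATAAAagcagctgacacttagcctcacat
S100a9, chr3:90695722-90695971, minus strand: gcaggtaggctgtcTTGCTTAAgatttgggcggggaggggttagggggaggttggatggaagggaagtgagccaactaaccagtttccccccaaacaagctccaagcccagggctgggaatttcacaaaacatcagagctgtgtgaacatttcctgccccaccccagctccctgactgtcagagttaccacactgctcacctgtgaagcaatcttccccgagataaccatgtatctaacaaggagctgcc
Retnlg, chr16:48872358-48872607, plus strand: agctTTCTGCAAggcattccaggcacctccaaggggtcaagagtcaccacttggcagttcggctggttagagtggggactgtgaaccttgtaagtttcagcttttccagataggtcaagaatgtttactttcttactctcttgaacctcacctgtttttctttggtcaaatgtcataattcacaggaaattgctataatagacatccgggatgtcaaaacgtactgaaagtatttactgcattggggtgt
Lcn2, chr2:32387740-32387989, minus strand: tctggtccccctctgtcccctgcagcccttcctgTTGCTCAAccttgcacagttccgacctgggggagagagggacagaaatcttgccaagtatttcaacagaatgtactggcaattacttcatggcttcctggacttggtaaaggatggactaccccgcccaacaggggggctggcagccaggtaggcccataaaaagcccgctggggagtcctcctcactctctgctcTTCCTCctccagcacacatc

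The C/EBP-type letters TTGCNNAA were present in 6 of the 10 promoters, those of S100a9, Retnlg, Lcn2, Ltf, Ngp and Mmp8, and in 9.56% of 32851 promoter windows of the same length. The PU.1-type letters GAGGAA were present in the windows of S100a8, Lcn2, Ltf, Mmp8, Elane and Mpo, and in 23.3% of all windows. S100a8 alone had TATAAA, which occurred in 12.4% of windows and lay directly beside a PU.1-type match. The AP-1 letters TGACTCA and the CRE letters TGACGTCA were found in 0 of the 10 windows, against 4.46% and 1.55% of all windows. The motifs were chosen after the sequences had been seen, and a match is only a match of letters. S100a8 and S100a9 are neighbours on chromosome 3 with 0 protein-coding genes between them. Ltf, Camp, Ngp and Mmp8 all lie on chromosome 9, with 8 protein-coding genes between Camp and Ngp and 20 between Ngp and Ltf.

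Signals are given as log2 of the scanner software's processed signal minus the array's 75th percentile, so 0 is the 75th percentile of that array. On this scale a value says where a probe stood on its array, and values of different probes are not set against each other. The 75th percentile was 619 to 926 signal units, that is, 20.6 to 31.9 times the background of its array. Between 63.7% and 68.0% of spots were well above background. None of the spots was saturated. The number of arrays, 4 for each genotype, limits the precision. The samples numbered 1 and 2 of both genotypes shared 1 slide and those numbered 3 and 4 the other. The labels do not say what a number stands for. The gate's own genes were bright in both groups. Adgre1, which encodes F4/80, stood at 4.14 ± 0.60 (SD, n = 4) in WT and 4.07 ± 0.54 (SD, n = 4) in KO samples, and Ptprc, which encodes CD45, at 4.52 ± 0.54 and 4.42 ± 0.55. The samples are called KO by their labels: no source used here places the array's Atf3 probe relative to the deleted part, so it checks nothing.

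Both subunits of calprotectin were well above background on all 8 arrays, and their levels were set apart by sample number far more than by genotype. S100a8 stood at 3.72, 2.02, 0.08 and 1.59 in WT samples 1 to 4 and at 3.45, 2.11, -0.42 and 1.52 in KO samples 1 to 4. The samples numbered 1 were the highest and those numbered 3 the lowest in both genotypes. From number 3 to number 1 the S100a8 signal differed 12.5-fold in WT and 14.5-fold in KO samples. The 2 genotypes overlapped throughout, with means of 1.85 ± 1.50 in WT and 1.67 ± 1.60 in KO samples (SD, n = 4 each). KO minus WT was -0.19 (SE 0.97), and the 4 differences within a number were -0.27, 0.09, -0.49 and -0.06. The gap between the genotypes was thus small beside the spread among samples of either one. Here and below, each SE is from the fit without the sample number as a block, so it includes the spread between numbers.

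S100a9, the partner that stabilises S100A8, gave the same order. From number 1 to number 4 the levels were 5.08, 3.98, 2.00 and 3.49 for WT and 4.91, 3.83, 1.44 and 3.21 for KO samples. Number 1 exceeded number 3 by 8.44-fold in WT and 11.1-fold in KO samples, and numbers 2 and 4 were the closest neighbours. The means were 3.64 ± 1.28 and 3.35 ± 1.45 (SD, n = 4 each), and KO minus WT was -0.29 (SE 0.86). The KO sample was the lower of the pair at each of the 4 numbers, by 0.15 to 0.56 on the log2 scale, while the ranges of the 2 genotypes overlapped.

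Retnlg encodes resistin-like gamma, a secreted protein made mostly by bone marrow and neutrophils, and it had the widest span of the 3 genes with this order. It stood at 3.00, 0.81, -1.07 and -0.12 in WT samples 1 to 4 and at 3.16, 0.89, -2.07 and -0.30 in KO samples 1 to 4. The order of the numbers, 1 above 2 above 4 above 3, was that of S100a8 and S100a9 in both genotypes. Number 1 exceeded number 3 by 16.8-fold in WT and by 37.4-fold in KO samples. The genotype means, 0.66 ± 1.74 and 0.42 ± 2.19 (SD, n = 4 each), differed by -0.24 (SE 1.23). Within slides, KO minus WT was 0.12 on the slide with numbers 1 and 2 and -0.59 on the other, so the direction was not shared. For S100a8 the same pair of values was -0.09 and -0.28, and for S100a9 -0.16 and -0.42. Because these are bulk samples, more cells that express a gene and more of its RNA in each cell cannot be told apart.

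**Figure D1:**
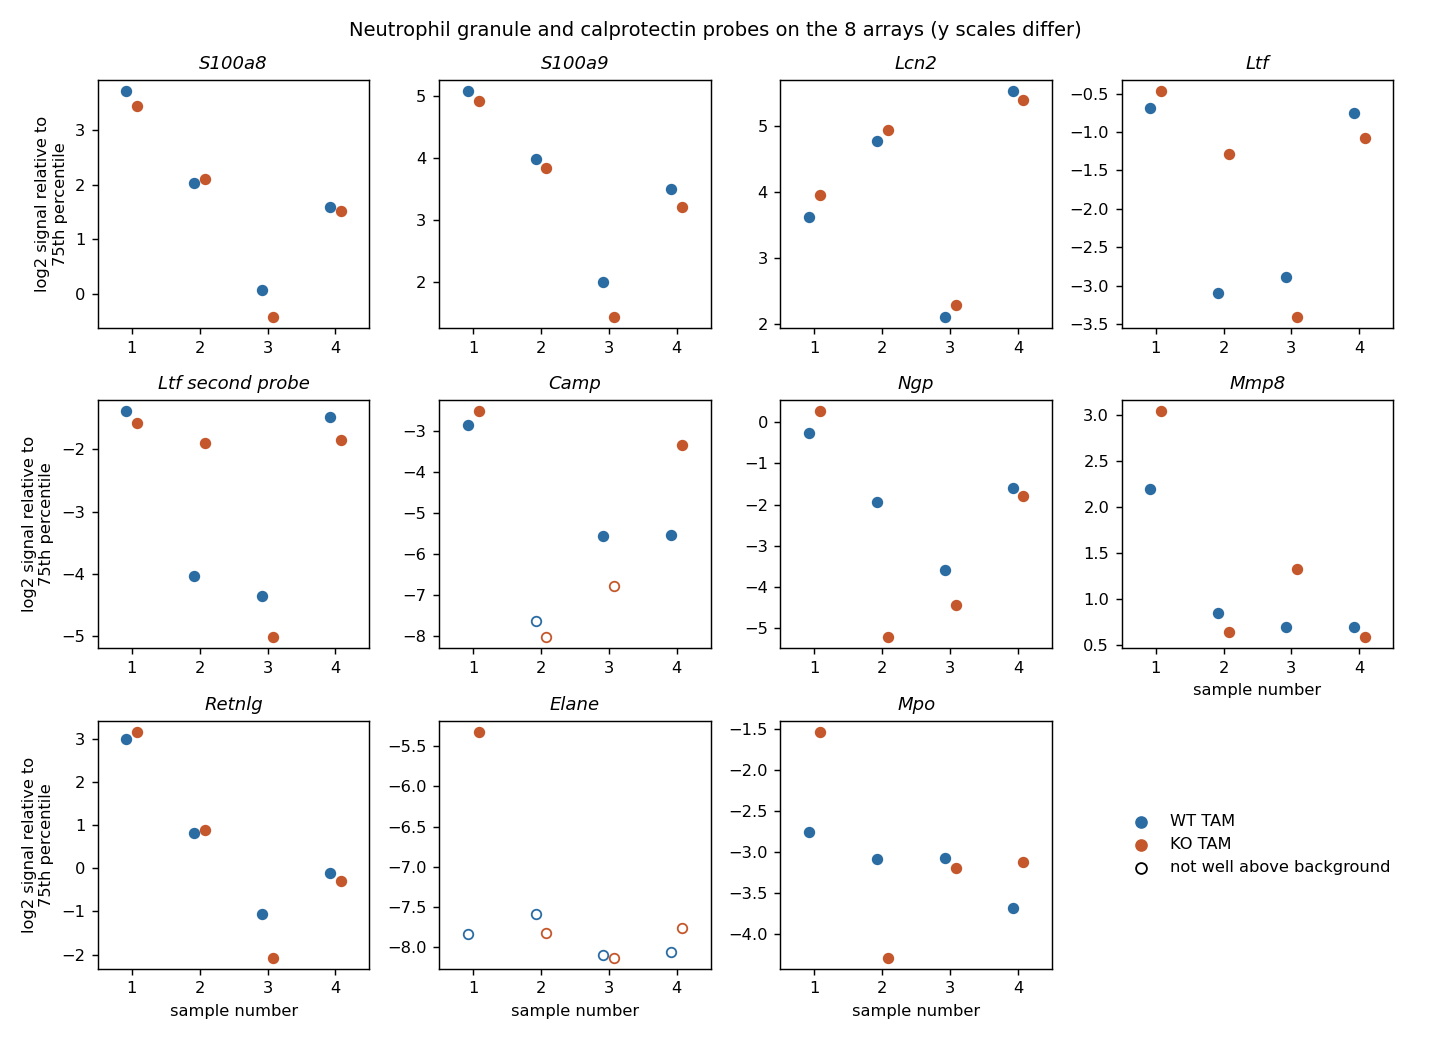
Signal of the 11 probes on the 8 arrays, as log2 of processed signal relative to the array's 75th percentile (y, with a scale of its own in each panel), against sample number (x), for WT (blue) and KO (orange) samples; open points were not well above background. S100a8, S100a9 and Retnlg are highest at number 1 and lowest at number 3 in both genotypes, while Lcn2 is highest at number 4, and the 2 genotypes overlap in every panel.

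Lipocalin 2 (Lcn2) binds bacterial siderophores and so withholds iron from microbes, and besides neutrophils it is made by epithelial cells and macrophages. WT samples 1 to 4 read 3.62, 4.77, 2.11 and 5.52, and KO samples 1 to 4 read 3.96, 4.93, 2.29 and 5.39. Lcn2 was highest at number 4 and lowest at number 3 in both genotypes, with number 2 above number 1. The order was not that of calprotectin, apart from number 3 at the bottom. The span from the lowest to the highest sample was 10.6-fold in WT and 8.61-fold in KO samples. The genotype means were 4.01 ± 1.49 and 4.14 ± 1.37 (SD, n = 4 each), and KO minus WT was 0.14 (SE 0.89), with 0.25 on the first slide and 0.02 on the second.

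Lactoferrin (Ltf), the iron-binding protein of specific granules, had 2 probes, which were well above background on all arrays. The brighter probe read -0.69, -3.09, -2.88 and -0.75 in WT samples 1 to 4, against -0.47, -1.29, -3.40 and -1.08 in KO samples 1 to 4. The second read -1.39, -4.04, -4.35 and -1.48 in WT and -1.57, -1.90, -5.02 and -1.85 in KO samples. Both probes were high at numbers 1 and 4 and low at number 3 in both genotypes. At number 2 both probes were low in the WT sample and not in the KO sample, a difference of 1.80 for the brighter probe and 2.14 for the second. The KO mean exceeded the WT mean by 0.29 (SE 0.81) and 0.23 (SE 1.01). That mean rested on number 2: on the first slide the brighter probe differed by 1.01, on the second slide by -0.42.

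Camp, the precursor of the cathelicidin antimicrobial peptide, and Ngp, a related protein of neutrophil granules, were both highest at number 1. Camp read -2.87, -7.63, -5.57 and -5.55 in WT samples 1 to 4, against -2.53, -8.03, -6.78 and -3.35 in KO samples 1 to 4. It was well above background in WT samples 1, 3 and 4 and in KO samples 1 and 4, so its other readings are bounds. Neither sample numbered 2 was well above background for Camp, and the KO sample numbered 4 exceeded its WT partner by 2.20. The genotype means, which include those bounds, differed by 0.23 (SE 1.45).

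Ngp was well above background on all arrays, at -0.27, -1.95, -3.59 and -1.60 in WT samples 1 to 4, against 0.27, -5.23, -4.44 and -1.80 in KO samples 1 to 4. Its lowest reading was number 3 among WT samples and number 2 among KO samples. The difference at number 2 was -3.28, the largest within-number difference of the 11 probes. KO minus WT was -0.95 (SE 1.26), the lowest of the 9 genes in the fit, with group means of -1.85 ± 1.37 and -2.80 ± 2.51 (SD, n = 4 each). Without the KO sample numbered 2 the difference was -0.14. At number 2, then, Ltf was higher and Ngp lower in the KO sample, and the 2 genes gave no common direction.

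Mmp8, the neutrophil collagenase of specific granules, stood at 2.20, 0.84, 0.70 and 0.69 in WT samples 1 to 4 and at 3.03, 0.64, 1.33 and 0.59 in KO samples 1 to 4. Number 1 stood above the rest in both genotypes, and the other 3 WT samples lay close together. KO minus WT was 0.29 (SE 0.61), with means of 1.11 ± 0.73 and 1.40 ± 1.14 (SD, n = 4 each). It was -0.26 without the KO sample numbered 1 and 0.65 without the WT sample numbered 1.

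The azurophil granule genes gave the least regular pattern across the numbers. Mpo encodes myeloperoxidase, which makes hypochlorous acid from hydrogen peroxide and chloride. It read -2.76, -3.09, -3.08 and -3.69 in WT samples 1 to 4, against -1.54, -4.29, -3.20 and -3.12 in KO samples 1 to 4. The WT samples spanned 1.90-fold, and the KO samples 6.73-fold, with number 1 at the top in both. The difference of KO from WT was 0.11 (SE 0.54), and the differences within a number had no common direction.

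Elane encodes neutrophil elastase, a serine protease of the same granules. Its probe was well above background on 1 array only, that of the KO sample numbered 1, at a processed signal of 15.96. On the other 7 arrays the signal was 2.69 to 4.08, not well above background. No fold is given, since all WT readings and 3 of the 4 KO readings are bounds.

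Across the 9 genes in the fit, KO minus WT was above 0 for Lcn2, Ltf, Camp, Mmp8 and Mpo and below 0 for S100a8, S100a9, Ngp and Retnlg. The differences ran from -0.95 to 0.29, and their median was 0.11, beside -0.0090 for all genes tested. In the limma fit over 20879 genes, 0 genes (0%) had an adjusted p under 0.05, and limma's adjusted p was at least 0.412 throughout. Before adjustment, p lay under 0.05 for 701 genes (3.36%) and for 0 of the 9 genes in the fit. Of the 701, 233 (1.12%) were higher and 468 (2.24%) lower in KO samples. With the sample number as a block the adjusted count was again 0 and the unadjusted count 1580 (7.57%). The WT and KO samples overlapped for each of the 9 genes, so 0 had separate groups, beside 2.14% of 20841 genes. Since the genes were chosen with this contrast in view, nothing is read from these counts.

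**Figure D2:**
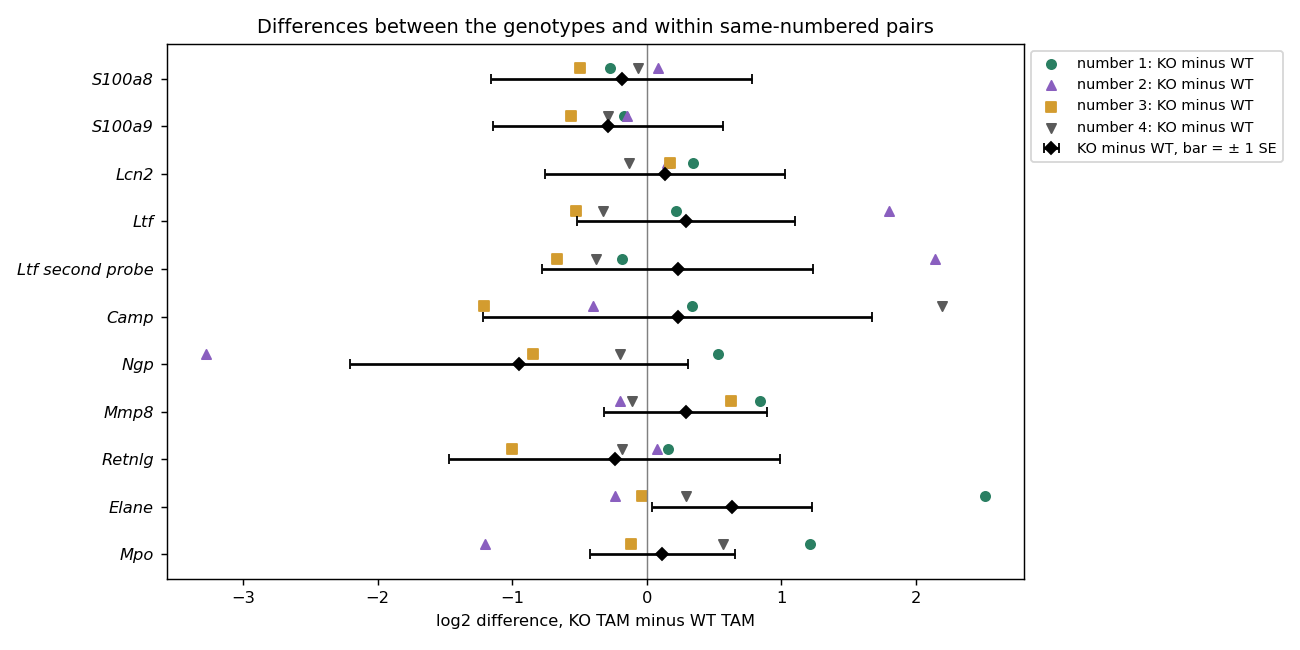
Difference between KO and WT samples for each of the 11 probes, in log2 units (x): the diamond is the difference of the group means with a bar of 1 SE on either side, and the coloured points are the 4 differences between samples of the same number. The SE is from the fit without the number as a block and includes the spread between numbers. Every bar but that of Elane reaches across 0, Elane was well above background on 1 array only, so that its point is no measured difference, and the points at number 2 stand apart for Ltf (1.80) and Ngp (-3.28).

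The sum of squares of each gene over the 8 arrays was divided into a part between the 4 numbers, a part between the genotypes and a remainder. The number took 98.9% for S100a8, 98.1% for S100a9, 97.7% for Retnlg and 99.2% for Lcn2. It took 82.1% and 83.5% for the Ltf probes, 89.9% for Camp, 89.9% for Mmp8 and 77.6% for Ngp. The share of Camp includes its readings that were not well above background. Mpo, with 62.3%, was below the median of all genes tested, 66.3%, and Elane had 46.4%, from readings mostly not well above background. A gene without any structure would be expected to give 42.9% to the number from the degrees of freedom alone. Over the 9 genes in the fit the median was 89.9%. The genotype took 0.476% for S100a8 and 6.83% for Ngp, with a median of 0.612% over the 9 genes and 4.95% over all genes tested. The SD over the 8 arrays was above that of the median gene, 0.47, in 9 of 9 genes. These shares used the same values by which the genes had been picked and serve as a description.

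**Figure D3:**
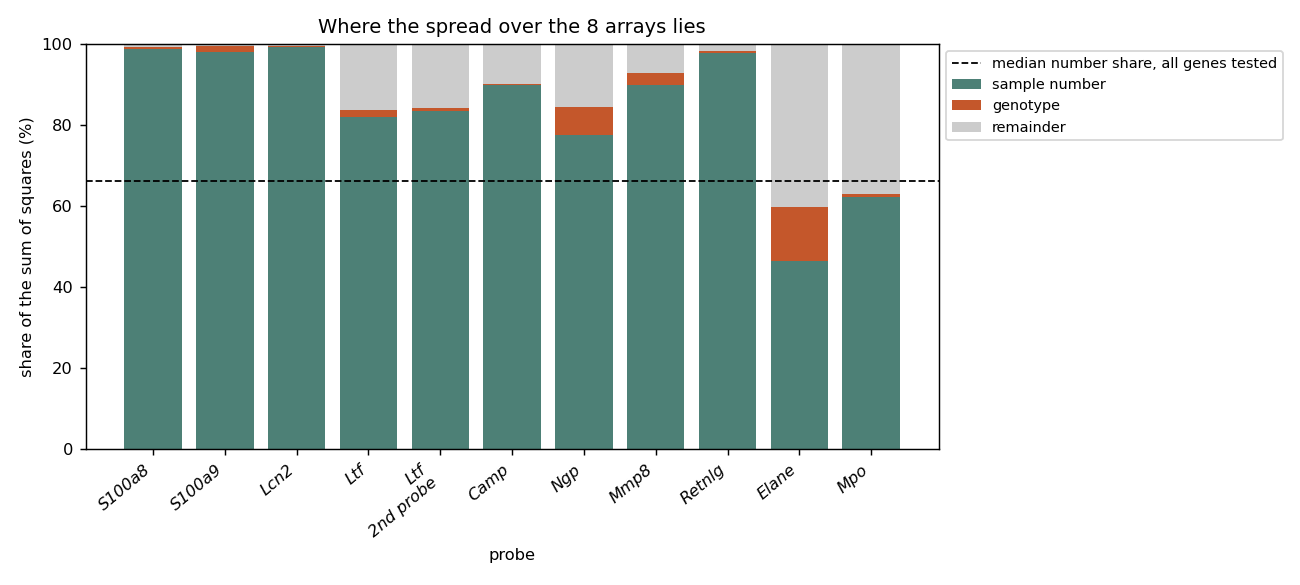
Share of each probe's sum of squares over the 8 arrays (y, percent) that lies between the 4 sample numbers, between the genotypes and in the remainder, for the 11 probes (x); the dashed line is the median share of the number over all genes tested, 66.3%. The number holds 98.9% for S100a8 and 99.2% for Lcn2, and Mpo and Elane alone lie under the line.

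In both genotypes 8 of the 9 genes in the fit were highest at number 1, all but Lcn2, beside 12.7% of all genes. In both genotypes 4 of the 9 were lowest at number 3, namely S100a8, S100a9, Retnlg and Lcn2, beside 13.9% of all genes. Elane is given no order, since on 7 arrays it was not well above background. S100a8, S100a9 and Retnlg met both conditions, which 1.14% of all genes did. Number 1 and number 2 shared a slide, as did numbers 3 and 4, so the differences between those numbers arose within a slide. The difference between the slides themselves cannot be told apart from that between the numbers on them.

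Correlations between the genes were taken over the 8 arrays. The 8 points are 4 numbers in 2 genotypes, share slides and the scaling of each array, and are not independent, so the coefficients are given without a p. S100a8 correlated with S100a9 at Pearson's r = 0.994 (Spearman's rho 0.976) and with Retnlg at 0.978 (0.976). Camp and Ngp gave 0.802 (0.905), and Mmp8 and Mpo 0.838 (0.714). Every coefficient of Camp includes its readings that were not well above background. S100a8 and Ngp gave 0.713 (0.548). Ltf gave 0.756 with S100a8, 0.647 with Camp, 0.589 with Ngp, 0.401 with Mmp8 and 0.203 with Mpo. Lcn2 had coefficients from -0.28 with Mpo to 0.564 with Ltf. The coefficients did not divide the granule genes other than S100a8, S100a9 and Retnlg into clear sets.

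Markers of other cell types moved with some of these genes over the same arrays. Of 14 neutrophil markers outside the group 13 were tested, and Ly6g had no named probe on this array. In both genotypes 10 of the 13 were highest at number 1 and 7 were lowest at number 3, beside 12.7% and 13.9% of all genes. Cxcr2, the chemokine receptor that draws neutrophils into tissue, stood at -0.37, -2.04, -3.81 and -1.42 in WT samples 1 to 4 and at -0.51, -1.71, -4.23 and -2.62 in KO samples 1 to 4. Csf3r, the receptor for G-CSF, was also highest at number 1, at 1.26 in the WT and 0.84 in the KO sample, but it was lowest at number 4. The linear signals of the 13 markers, summed in units of the 75th percentile, ranged from 16.7 to 55.0 in WT and from 20.2 to 65.2 in KO samples, with number 1 at the top and number 4 at the bottom of both. Such a sum is weighted to bright probes such as that of Il1r2. The mean of the 13 log2 values, each gene centred on its own mean, was also highest at number 1 (1.23 in WT, 1.32 in KO) but lowest at number 3 (-1.11 and -1.19), with -0.35 and -0.55 at number 4. S100a8 correlated with the 13 markers at a median r of 0.827, from 0.01 to 0.994. Neutrophils lack F4/80 or carry little of it, and how many of them passed the gate was not measured here. Whether neutrophils in the sorted fraction set the levels of S100a8, S100a9 and Retnlg was not tested.

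Mast cell genes other than Fcer1a were highest at number 1 in both genotypes. The eosinophil and mast cell list had 7 of 10 genes tested, and its summed signal ranged from 4.57 to 15.5 in WT and from 4.79 to 13.3 in KO samples. That sum too is weighted to bright probes, here that of Ear1. Cpa3, the mast cell carboxypeptidase, stood at -0.18, -4.89, -4.33 and -3.60 in WT samples 1 to 4 and at -0.97, -2.04, -5.16 and -2.27 in KO samples 1 to 4. With the 4 mast cell genes Cpa3, Mcpt4, Tpsb2 and Fcer1a, a subset formed after their values had been seen, S100a8 correlated at a median r of 0.879. Among KO samples Fcer1a was highest at number 2 (-2.29), beside -3.44 at number 1. It was not well above background in WT samples 2 and 4 and KO sample 3, so its coefficient includes bounds. The eosinophil gene Epx was well above background on 4 of the 8 arrays, and its levels did not peak at number 1 in both genotypes. Ear1, from the same list, had no such shared peak either. Siglecf, also listed, went the other way. It was well above background on all 8 arrays and peaked at number 1 in both genotypes (WT 0.93, KO 0.39). The samples numbered 1 thus held the highest summed signal of both the neutrophil list and this list, and the part of either cell type in the signal of the group was not tested.

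Lcn2 moved with the epithelial markers instead. Of 11 tumour epithelial genes 11 were tested, 10 were lowest at number 3 in both genotypes and 0 were highest at number 1. Krt8, a keratin of simple epithelia, stood at 3.51, 4.52, 1.63 and 4.91 in WT samples 1 to 4 and at 3.27, 4.34, 1.52 and 4.96 in KO samples 1 to 4, which is the order of Lcn2 in both genotypes. The summed signal of the 11 genes ranged from 13.4 to 123.9 in WT and from 14.01 to 124.6 in KO samples. Over the 8 arrays Lcn2 correlated with them at a median r of 0.983, from 0.756 to 0.995, and with 11 macrophage markers at -0.89, from -0.97 to -0.72. For S100a8 the medians were 0.476 with the epithelial and -0.32 with the macrophage markers. Fibroblast genes were also lowest at number 3 in both genotypes, 8 of 8. Epithelial cells lack CD45 and F4/80, the proteins of the gate, and the purity of the sorted cells was not measured here. Whether tumour cells in the sorted fraction supplied the Lcn2 signal was not tested.

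The macrophage markers themselves had 11 of 12 genes tested, and their summed signal ranged from 211.1 to 416.3 in WT and from 212.1 to 417.9 in KO samples. It was highest at number 3 and lowest at number 4 in both genotypes. Mrc1, the mannose receptor, stood at 2.11, 2.58, 3.83 and 1.78 in WT samples 1 to 4 and at 2.37, 2.48, 3.62 and 1.71 in KO samples 1 to 4. The samples with the least S100a8 and Lcn2 were thus those with the most Mrc1. Of 11 monocyte markers 8 were highest at number 1 and 1 was lowest at number 3 in both genotypes, with a summed signal of 73.8 to 208.2 in WT and 88.9 to 216.9 in KO samples. At number 3 that sum was 174.0 and 171.2, the second highest of either genotype, whereas S100a8 was lowest there. Ly6c2, which marks inflammatory monocytes, read 5.80 in the WT and 5.91 in the KO sample numbered 1. The part of monocytes, which also make calprotectin, in S100a8 and S100a9 was not tested.

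The other marker lists did not follow calprotectin in this way. Of 10 granulocyte progenitor genes 6 were tested and 1, Ctsg, was highest at number 1 in both genotypes, while Ms4a3 was not well above background on enough arrays. Of 10 T cell genes 9 were tested, 8 above and 1 below 0 in KO minus WT, and 1 was highest at number 1. Of 8 endothelial genes 7 were tested, 0 above and 7 below 0, and 0 were highest at number 1. Of 10 erythroid genes 3 were tested, 0 above and 3 below 0. The limma fit called 0 genes of these lists, and unadjusted p was under 0.05 for Cd6 among the T cell genes (-0.62, SE 0.25) and for Vwf among the endothelial genes (-0.63, SE 0.24). With the sample number as a block 0 were called, and unadjusted p was under 0.05 for 5 of the 9 T cell genes and 4 of the 7 endothelial genes. Among these, named after their values were seen, Cd3d differed by 0.67 and Cd3g by 0.51 (blocked limma adjusted p 0.634 each), and Cdh5 differed by -0.96.

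**Figure D4:**
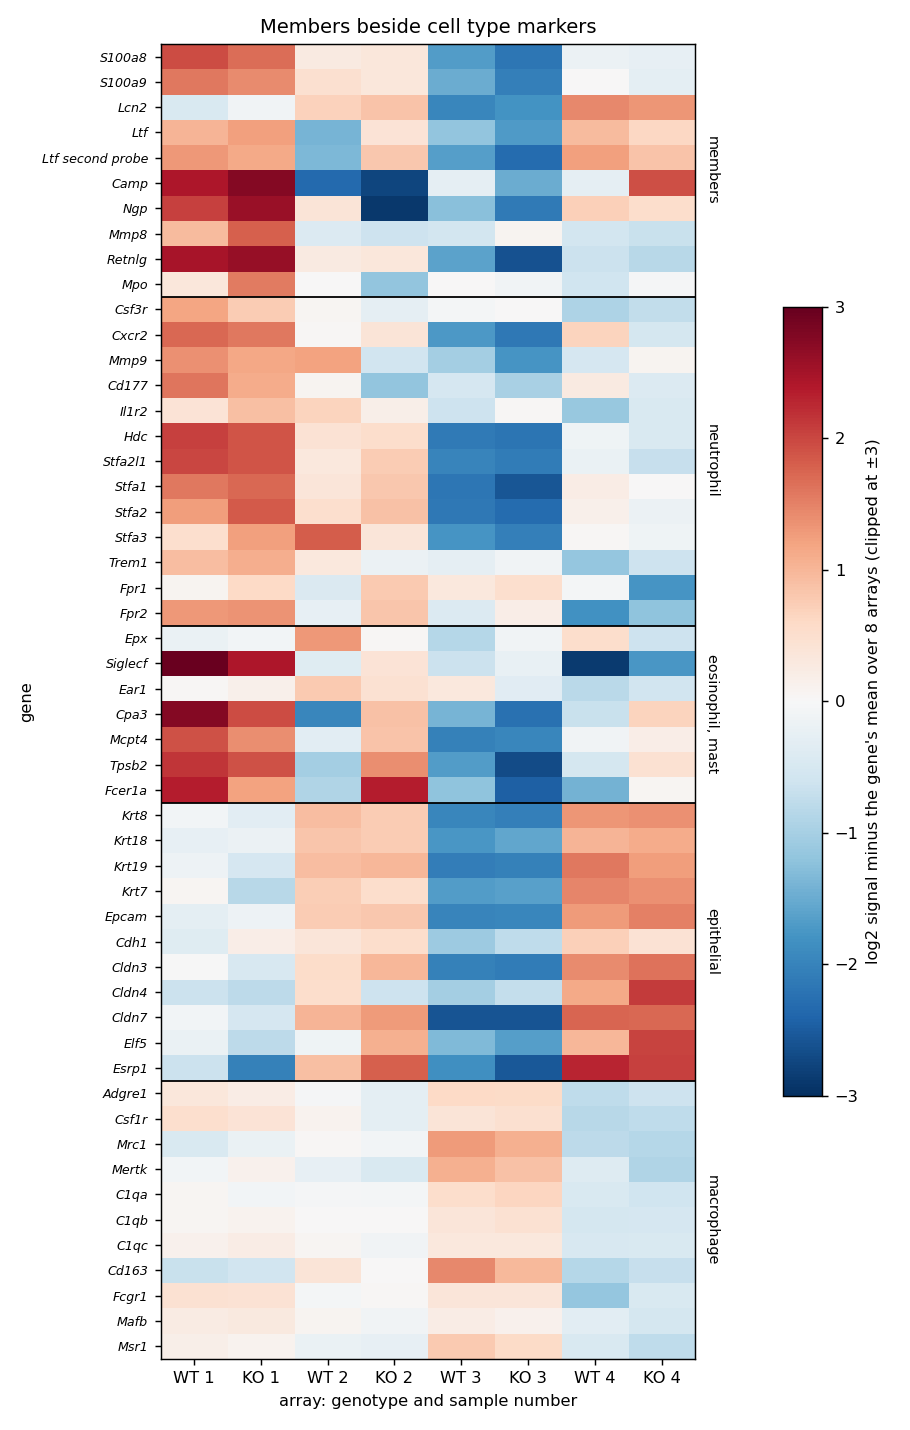
Signal of the probes of the 9 genes in the fit and of neutrophil, eosinophil and mast cell, epithelial and macrophage markers (rows) on the 8 arrays (columns, the 2 genotypes of a number side by side), as log2 signal minus the gene's mean over the arrays, with the colour scale ending at 3 log2 units on either side. S100a8, S100a9 and Retnlg are red at number 1 and blue at number 3 together with Hdc and the stefin genes, and Lcn2 follows Krt8 and the other epithelial rows.

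Of 9 lists of genes around the group by function, with 110 genes, 91 were tested. KO minus WT was above 0 for 51 of them and below 0 for 40, with a median of 0.02 beside -0.0090 for all genes. In the limma fit 0 of the 91 had an adjusted p under 0.05 (the 91 adjusted values were all 0.9999), and 0 had an unadjusted p under 0.05. With the sample number as a block 0 were called and 4 had an unadjusted p under 0.05, with blocked limma adjusted p-values of 0.634 to 0.650. Among these were Cd177, Fpr2 and Chil3, named here after their values were seen in the blocked fit. Fpr2, a formyl peptide receptor, differed by 0.59 (SE 0.75). Cd177, a surface protein of neutrophils, differed by -0.72 (SE 0.61), and Chil3, a chitinase-like protein of myeloid cells, by 0.47 (SE 0.63).

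Among the granule proteins outside the group, 2 of 6 azurophil genes were tested and both had positive differences, with 0 called. Prtn3, proteinase 3, differed by 0.52 (SE 0.38) and Ctsg, cathepsin G, by 0.59 (SE 0.81). Ctsg was highest at number 1 in both genotypes, at -3.88 and -2.32, as Mpo was. It was not well above background in WT sample 2 and KO sample 4, so its difference includes bounds. Prtn3 was highest at number 1 in WT samples (-3.59) but at number 4 in KO samples (-3.09). Of 15 specific and gelatinase granule genes 14 were tested, 9 above and 5 below 0, with a median difference of 0.02. In both genotypes 8 of the 14 were highest at number 1 and 5 lowest at number 3, beside 12.7% and 13.9% of all genes. Of these genes, Mmp9 and Cd177 were already counted among the neutrophil markers. Mmp9, gelatinase B, differed by -0.54 (SE 0.76), and Adam8, a membrane metalloprotease, by -0.35 (SE 0.45). Chil1, a chitinase-like protein named after its values were seen, did not follow calprotectin: it stood at 3.93, 4.73, 2.14 and 5.09 in WT samples 1 to 4 and at 3.84, 4.64, 2.32 and 5.20 in KO samples 1 to 4, the order of Lcn2.

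Of 22 genes of neutrophil surface receptors and of mature neutrophils 19 were tested, 9 above and 10 below 0. In both genotypes 14 of the 19 were highest at number 1 and 11 lowest at number 3, beside 12.7% and 13.9% of all genes. Many of the 19, such as Csf3r, Cxcr2, Hdc and the stefin genes, were already counted among the neutrophil markers. The counts of these lists are therefore not separate observations. Il1r2, the decoy receptor for interleukin 1, differed by 0.33 (SE 0.47) and Mrgpra2b, a receptor found on neutrophils, by 0.74 (SE 0.86). Mrgpra2b was not well above background in WT sample 3, its lowest reading (-6.84), so its difference includes a bound. Of 11 granulocyte transcription factors 10 were tested, 4 above and 6 below 0, and 1 of the 10 was highest at number 1 in both genotypes. Gfi1, a repressor needed for neutrophil formation, differed by 0.91 (SE 0.56) and Cebpd by 0.21 (SE 0.20). Runx1 differed by -0.12 (SE 0.29) and Cebpb by -0.12 (SE 0.32). These 2 lists, 14 of 19 and 1 of 10 genes with a peak at number 1, are given side by side as counts only.

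The remaining S100 genes had 11 of 15 tested, 7 above and 4 below 0, with a median of 0.05, and 3 were highest at number 1 in both genotypes. S100a10, the annexin A2 partner, differed by -0.24 (SE 0.18), S100a6 by -0.21 (SE 0.28), S100a5 by 0.19 (SE 0.27) and S100a1 by -0.18 (SE 0.27). The receptors of calprotectin and lipocalin 2 had 7 of 8 tested, 2 above and 5 below 0, with a median of -0.13. Ager, the receptor RAGE, differed by -0.27 (SE 0.41), Cd36 by -0.27 (SE 0.27), Bsg by -0.14 (SE 0.18) and Slc22a17, the lipocalin 2 receptor, by 0.33 (SE 0.43). Ager was not well above background in KO sample 2, its lowest reading (-5.89), so its difference includes a bound.

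Growth factors and chemoattractants of neutrophils had 15 of 17 tested, 9 above and 6 below 0, and 5 were highest at number 1 in both genotypes. Il6 differed by 0.42 (SE 0.29), Tnf by -0.43 (SE 0.39) and Ppbp by 0.32 (SE 0.42). Cxcl5 was well above background in 1 WT and 3 KO samples, and no difference is given for it. Protease inhibitors had 6 of 9 tested, 4 above and 2 below 0, and 0 were highest at number 1. Timp2, an inhibitor of metalloproteases, differed by -0.18 (SE 0.36), Serpina3n by 0.40 (SE 0.95), Serpinb1a, an inhibitor of elastase, by 0.15 (SE 0.41) and Serpinb6a by -0.07 (SE 0.42). The subunits of the phagocyte oxidase had 7 of 7 tested, 5 above and 2 below 0. Ncf1 differed by 0.25 (SE 0.47), Cyba by 0.10 (SE 0.28), Ncf4 by 0.06 (SE 0.36) and Rac2 by 0.05 (SE 0.33).

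The 8 named genes whose values over the 8 arrays were most like the mean of the 9 genes in the fit were Csf1 (r = 0.976), Gadd45a (0.959), Clk1 (0.957), Rgcc (0.955), L1cam (0.953), Sun2 (0.951), Pglyrp1 (0.951) and Cma1 (0.949). Csf1 encodes the macrophage growth factor M-CSF, Pglyrp1 a peptidoglycan-binding protein of neutrophil granules and Cma1 a mast cell chymase. The 4 most like S100a8 alone were Hdc (0.994), the histamine-forming enzyme of mast cells and granulocytes, Inhba (0.992), the activin subunit, and the stefin genes Csta2 (0.987) and Stfa2l1 (0.986). Hdc stood at 2.51, 0.89, -1.65 and 0.33 in WT samples 1 to 4 and at 2.35, 1.00, -1.72 and 0.00 in KO samples 1 to 4, the order of S100a8. For Lcn2, asked after its values had been seen, they were Grhl2 (0.996) and Sox9 (0.996), both transcription factors of epithelia, Lzts2 (0.996) and Ptprf (0.995). Likeness was measured by Pearson's r over 8 arrays that share slides, scaling and numbers, and is a description. The mean of the 9 genes was taken over centred log2 values without scaling. It is therefore weighted to genes with a wide spread, such as Camp and Ngp, and includes the readings of Camp that were not well above background.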

How the data were processed

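The 8 samples were profiled on 1-colour Agilent mouse arrays. Per the labels' protocols, 250 ng of total RNA of each was amplified and labelled with Cy3. Per the file headers, the authors extracted spot intensity with Agilent Feature Extraction 10.7.1.1 (the submitters' processing notes name 10.5), and the processed signal used here was background-corrected by that software. A deposited table of intensity values, on a scale not given in the sources used here, had column medians of 92 to 94 and correlated at r = 0.999, in differences between arrays, with quantile-normalized median signal. Differences between arrays ran the same way in both; its scale is inferred from that alone, and it served as an alternative.

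Control spots and spots marked as outliers were dropped, repeat spots of a probe were averaged after taking log2 of the processed signal, and values were set relative to the array's 75th percentile. Of 41174 probes, 25097 were named by accession through a RefSeq table of GRCm38.p6 and 16077 were not. Probes well above background on at least 4 arrays (27165) were kept, and the brightest stood for its gene (20879 genes, 13461 with a symbol). The comparison of KO with WT samples used limma (version 3.58.1, under R 4.3.3; lmFit, then eBayes), with two-sided p-values adjusted by Benjamini-Hochberg over all genes tested. The fit was tested on simulated data, with noise drawn independently for each gene and array. Those data held no spread shared between numbers or slides, so they do not show how the fit behaves under it. Genes and lists were chosen with earlier results of these data known. Named are the 10 genes, up to 4 genes per related list by smallest unadjusted p, the first 4 tested of each marker list, Adgre1, Ptprc, the 8 genes most like the group's mean and the 4 most like S100a8; the text marks any other gene as chosen after its values were seen. One gene that this rule names is not reported here.

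Same-numbered samples of the 2 genotypes deviated together from their group means (r = 0.301, 0.140, 0.702 and 0.512 for numbers 1 to 4, each over 0.1). The numbers, which come from the sample titles, were therefore taken to pair the samples. Samples of different numbers gave r from -0.523 to 0.154. WT sample 2 gave 0.154 with KO sample 4, and WT sample 4 gave 0.139 with KO sample 2. The check thus does not single out the samples numbered 2 as a pair. Alternatives changed the background correction, the scaling, the filter, the input table, the slide or number as a block, the probe choice, the eBayes settings and the samples left out.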

Additional observations from a re-analysis of the deposited data

Results flagged for a closer look

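Within groups of 4 samples, 10 of 194 groups tested held a sample far from the other 3, and chance flags about 1 in 20 groups. Of these, 3 were among the 22 groups of the neutrophil granule probes. The second Ltf probe was lowest in the KO sample numbered 3, at -5.02, while the other KO samples lay between -1.90 and -1.57. Mmp8 was highest in the WT sample numbered 1, at 2.20, beside 0.69 to 0.84 in the other WT samples. Elane was highest in the KO sample numbered 1, at -5.32, beside -8.13 to -7.76, where it was not well above background.

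The other 7 concerned listed genes around the group. Cxcl5, a neutrophil chemoattractant, was highest in the WT sample numbered 4, at -3.04, and in the other 3 WT samples it was not well above background (readings of -8.36 to -7.72), so the size of the gap is not measured. Ppbp, a platelet chemokine precursor, was lowest in the WT sample numbered 4, at 0.16, and highest in the KO sample numbered 1, at 2.30. Timp2 was highest in both samples numbered 3, at 4.40 in WT and 4.06 in KO. Serpinb1a was lowest in the WT sample numbered 4, at -1.68. Alas2, an erythroid enzyme, was lowest in the KO sample numbered 3, at -4.54.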

How the results depend on the processing

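The count of genes called in the limma fit was 0 under each alternative but 1: it ranged from 0 to 1 when single samples were left out. Without the KO sample numbered 1, Hc was called at -2.66 with a limma adjusted p of 0.0492; in the other alternatives the smallest adjusted p ran from 0.201 to 1.00. The cause was not tested. With the replicate block 0 genes were called, and 1580 rather than 701 had an unadjusted p under 0.05. The block changed no call. Of 196 values of the 11 probes under alternatives, 34 changed sign, in 10 of 11 probes, all but Ngp. With single samples left out, S100a8 ranged from -0.78 to 0.51 and was positive without WT sample 1 or KO sample 3. S100a9 ranged from -0.83 to 0.35, Retnlg from -1.15 to 0.59, Lcn2 from -0.50 to 0.75, Ltf from -0.12 to 0.91, Camp from -0.65 to 1.18, Mmp8 from -0.26 to 0.65, Mpo from -0.38 to 0.53 and Ngp from -1.97 to -0.14. Normexp correction moved the median difference of all genes to -0.14 and turned the sign of Retnlg (0.0017), Camp (-0.28), the second Ltf probe (-0.13) and Mpo (-0.34). It also left 52 genes higher and 354 lower at an unadjusted p under 0.05, while quantile normalization gave 276 and 359 and the deposited values gave 305 and 318. Leaving out both samples numbered 1, chosen after seeing the data, turned Mpo to -0.25. Under the scalings and the deposited table, 8 of the 9 genes in the fit were highest at number 1 in both genotypes and 4 lowest at number 3. The signal over background limits Elane and Camp.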
